A study of Rattus norvegicus with 24 samples.

Results

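Mitochondrial fatty acid oxidation enzymes are the proteins that carry long-chain fatty acids into the mitochondrion and shorten them there. The 9 genes described are Cpt1a, Cpt2, Acadvl, Acadl, Acadm, Acads, Hadha, Hadhb and Decr1. They were found as every probe on the rat CodeLink array whose RefSeq accession belongs to 1 of these symbols, which gave 10 of 33849 rat probes (Acadl has 2) and 9 of the 4012 genes that could be named. The set was chosen on the 3 month difference of Decr1, 1 of the largest on the array, so the 3 month values of Decr1 are given as a description without a test.

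Retinal RNA was profiled on 24 arrays, 6 in each of 4 groups, and the design text calls each a biological replicate. The study's animal data list fewer rats than arrays for 1M Control, so whether each of those arrays is a separate rat is not settled, and p-values measure the spread between arrays. No pair of arrays was identical (0 pairs). The 1M STZ and 3M STZ groups were male Sprague Dawley rats made diabetic by an injection of streptozotocin, a drug toxic to pancreatic beta cells, and held for 1 or 3 months without insulin treatment. The 1M Control and 3M Control groups were age-related rats injected with vehicle alone. Each array reads RNA from whole retina, so fewer cells of a type and less RNA per cell cannot be told apart.

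In fatty acid oxidation, carnitine palmitoyltransferases (Cpt1a on the outer and Cpt2 on the inner mitochondrial membrane) bring acyl groups into the matrix. Acyl-CoA dehydrogenases of different chain-length preference then take the first oxidation step, and the trifunctional protein (Hadha and Hadhb) carries out the remaining steps on long chains. Decr1 is an auxiliary reductase that lets polyunsaturated fatty acids through the cycle. The retina is known chiefly for its use of glucose, and photoreceptors can also oxidise fatty acids.

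Promoter windows, 250 bases before to 50 after the annotated start, were read from RefSeq (GRCr8) for 7 of the 9 genes. Decr1 and Acadl had no entry. Hadha and Hadhb are transcribed away from each other, and their 2 windows share 200 bases. They are shown because these genes encode both subunits of 1 enzyme complex, and Acadvl is shown because its window holds the motif AGGTCA at 2 places. AGGTCA is the half-site bound by many nuclear receptors, including the PPAR and RXR pair. Capitals mark AGGTCA (or TGACCT, its reverse) and CCAAT (or ATTGG, its reverse).
Hadha, chr6:31907551-31907850, plus strand: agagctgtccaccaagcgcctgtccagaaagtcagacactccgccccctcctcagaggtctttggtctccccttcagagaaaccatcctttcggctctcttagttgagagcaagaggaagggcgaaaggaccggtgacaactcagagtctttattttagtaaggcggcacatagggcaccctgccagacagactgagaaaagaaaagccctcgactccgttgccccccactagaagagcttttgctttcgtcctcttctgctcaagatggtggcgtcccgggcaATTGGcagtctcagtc
Hadhb, chr6:31907451-31907750, minus strand: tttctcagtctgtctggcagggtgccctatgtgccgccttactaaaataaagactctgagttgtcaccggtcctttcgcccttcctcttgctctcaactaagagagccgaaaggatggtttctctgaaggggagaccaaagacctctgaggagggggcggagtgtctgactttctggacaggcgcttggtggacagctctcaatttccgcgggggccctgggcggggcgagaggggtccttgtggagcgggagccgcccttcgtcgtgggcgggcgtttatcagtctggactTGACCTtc
Acadvl, chr10:55236656-55236955, minus strand: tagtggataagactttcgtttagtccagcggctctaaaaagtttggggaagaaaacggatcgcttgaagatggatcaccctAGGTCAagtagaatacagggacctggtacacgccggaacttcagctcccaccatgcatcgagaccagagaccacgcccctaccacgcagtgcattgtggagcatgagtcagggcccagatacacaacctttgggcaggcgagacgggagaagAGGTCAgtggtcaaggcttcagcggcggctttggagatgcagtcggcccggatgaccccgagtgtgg

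AGGTCA, searched on both strands, was in 2 of the 7 windows (Acadvl and Hadhb) and in 16.2% of all 33469 windows. The tandem form AGGTCANAGGTCA, which contains AGGTCA and is the layout of a PPAR element, was in 0 of the 7 windows and in 0.0538% of all windows. CCAAT was in 2 of the 7 (Acads and Hadha), against 37.5% of all windows. Each match is a run of letters and says nothing of binding, and a missing match says only that these letters are not in this window.

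Values are scaled intensities, the background-subtracted brightness of a probe divided by the median of all rat probes on the same array. Differences are in log2 units, STZ minus control. A probe was tested where its median scaled intensity lay above 0.554, the 35th percentile, which left 22025 probes and all 10 member probes. Calls needed a Benjamini-Hochberg adjusted p under 0.05 from limma over all tested probes and at least a 1.2-fold difference. A stricter mark for dim probes is 1.14, the 95th percentile of the medians of the bacterial control probes.

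The arrays themselves differed between the groups at 3 months. The interquartile range of log2 values within an array was 1.48 to 2.23 in 3M Control and 2.07 to 2.70 in 3M STZ, against 3.36 to 3.67 in both 1 month groups, so levels were not compared between time points. With median scaling the median 3 month log2 difference over all tested probes was 0.44, and with quantile normalization, which gives all arrays the same distribution, it was 0.16. At 1 month these medians were 0.01 and 0.01. For that reason 3 month differences are given under both scalings and also relative to the median of 0.44. On 3M STZ array 1, 411 spots were more than 2 log2 units above the other arrays of the group, against 13 to 22 on the other 5, and on 3M Control array 2 the number was 400.

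Rod markers were measured at high levels on every array, with a summed scaled intensity over 5 genes of 179 to 503. The retinal pigment epithelium list summed to 0.690 to 1.72. Of the 5 rod genes 2 were called higher at 3 months with median scaling, and 2 were called lower after quantile normalization. Beside a background of 50.5% of tested probes called higher at 3 months, all 4 reactive glia genes rose (Gfap, Vim, Cd44 and Lgals3) and all 4 were called after quantile normalization. Their sum was 13.7 to 37.4 in controls and 56.6 to 94.7 in STZ retinas. Of 5 lens genes 4 rose and 2 were called after quantile normalization, with a sum of 90.5 to 207 against 256 to 499. Of 3 microglia and leukocyte genes 2 rose under both scalings (C1qb and Itgam), and the sum overlapped at 4.67 to 8.32 against 6.54 to 8.44. Of 5 bipolar and amacrine cell genes 4 rose, and the single cone gene, Opn1sw, rose from 3.27 to 5.57 in controls to 6.47 to 10.01, but none of these was called higher after quantile normalization. The part of these shifts in the results below was not tested.

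At 1 month no enzyme of the set passed the test between STZ and control retinas. Of the 9, limma called 0, and 0 reached an unadjusted p under 0.05. The 9 include Acads, whose 1 month values (0.214 to 0.479) all lay under the limit of 0.554. Acads passed the filter through its 3 month values, so its lack of a call at 1 month was not read. The methods' test also called 0. Over all tested probes 2 were called (0.00908%) and 927 had an unadjusted p under 0.05. The log2 differences of the members ran from -0.34 (SE 0.19) for Cpt2 to 0.19 (SE 0.26) for Acadm. Decr1, whose 1 month values had no part in its choice, was 3.63, 4.15 and 4.64 (lowest, median and highest scaled intensity) in 1M Control and 2.79, 3.95 and 5.50 in 1M STZ. The Decr1 groups overlapped in full, and their log2 difference was -0.07 (SE 0.50), where the size of the SE reflects a spread estimate shared with the 3 month arrays.

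At 3 months the genes for fatty acid oxidation were mostly higher in diabetic retinas, with Acads as the exception. Of the 8 members other than Decr1, 5 rose (Acadl, Acadm, Acadvl, Hadha and Hadhb), 1 fell (Acads) and 2 did not pass the test (Cpt1a and Cpt2). Among all tested probes 50.5% were called higher and 3.55% lower, so a rise of 5 of 8 lies near the background of these arrays. The median log2 difference of the 8 was 0.61, against 0.44 for all tested probes. After quantile normalization 3 of the 8 were higher (Acadl, Hadha and Cpt2) and 1 was lower (Acads), against backgrounds of 24.6% and 6.92%, and the median of the 8 was 0.26 against 0.16. The calls of Acadl (probe GE21658 only), Hadha and Acads thus held under both scalings. Those of Acadm, Acadvl and Hadhb held only with median scaling, and that of Cpt2 only with quantile normalization.

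**Figure D1:**
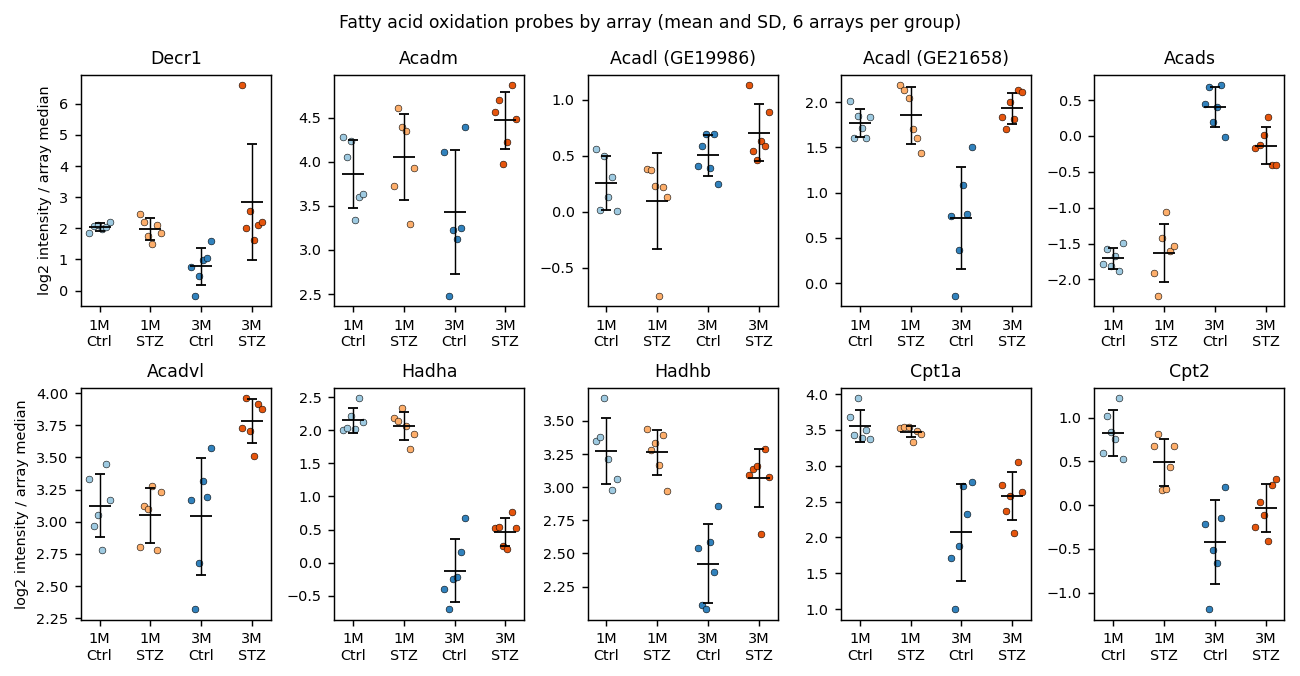
Level of each member probe on every array, as log2 of scaled intensity (vertical axis, a separate range in each panel), by group; points are arrays, and the long and short bars give the mean and SD of 6 arrays. Acadl probe GE21658 shows every 3M STZ array above all 6 controls of that time point, Acads lies lower in 3M STZ, and the Decr1 panel has a single 3M STZ point at 6.60.

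The carnitine shuttle genes gave no call with median scaling. Cpt1a (probe GE19602), the malonyl-CoA-regulated entry step, had scaled intensities of 2.00, 4.35 and 6.82 (lowest, median and highest) in 3M Control and 4.16, 6.11 and 8.30 in 3M STZ. The groups overlapped, and the log2 difference was 0.50 (SE 0.22, adjusted p = 0.0509). After quantile normalization it was 0.02 (adjusted p = 0.940). Cpt2 (GE20064), which returns the acyl group to CoA inside the mitochondrion, was dimmer, at 0.438, 0.779 and 1.16 in 3M Control and 0.755, 0.976 and 1.23 in 3M STZ. Its log2 difference was 0.39 (SE 0.19, adjusted p = 0.0829), and 0.69 (adjusted p = 0.0360) after quantile normalization, with 1 control and 2 STZ arrays above 1.14. In both genes the lowest control value came from 3M Control array 2 and the highest from 3M Control array 6.

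Acadl, the long-chain acyl-CoA dehydrogenase, was the only member besides Decr1 whose groups did not overlap at 3 months. On probe GE21658 it measured 0.908, 1.69 and 2.83 in 3M Control and 3.26, 3.79 and 4.39 in 3M STZ. Every STZ array lay above every control array, which held for 9.49% of all tested probes. Mean log2 levels were 0.72 ± 0.57 and 1.93 ± 0.17 (SD, n = 6 each), a 2.32-fold rise (log2 difference 1.21, SE 0.19, adjusted p = 0.000122). After quantile normalization the difference was 0.93 (adjusted p = 0.00111). In the 1 month groups the same probe ran from 3.03 to 4.01 in controls and from 2.72 to 4.57 in STZ retinas. The second Acadl probe, GE19986, did not show this. It measured 1.19, 1.42 and 1.62 in 3M Control and 1.37, 1.52 and 2.18 in 3M STZ, with a log2 difference of 0.20 (SE 0.17, adjusted p = 0.313) that was -0.07 after quantile normalization. Both probes carry the same RefSeq accession, so the rise of Acadl rests on 1 of its 2 probes.

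Acadm, the medium-chain acyl-CoA dehydrogenase, measured 5.58, 9.44 and 21.0 in 3M Control and 15.8, 22.96 and 29.2 in 3M STZ (GE20257). It rose 2.05-fold with median scaling (log2 difference 1.04, SE 0.26, adjusted p = 0.00286), and 96.5% of tested probes had a smaller 3 month difference. The highest 2 controls reached into the STZ range, and after quantile normalization the difference was 0.39 (adjusted p = 0.178).

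Acadvl, the very-long-chain enzyme of the inner membrane, measured 5.01, 9.08 and 11.9 in 3M Control and 11.4, 13.97 and 15.6 in 3M STZ (GE20041). The groups touched at a single control array, number 6. Acadvl rose 1.67-fold (log2 difference 0.74, SE 0.17, adjusted p = 0.00167), which is 0.29 above the median of all tested probes, and the difference was 0.13 (adjusted p = 0.445) after quantile normalization.

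Acads, the short-chain enzyme, went the other way. It measured 0.989, 1.34 and 1.63 in 3M Control and 0.751, 0.902 and 1.21 in 3M STZ (GE21659). The groups overlapped, with the STZ arrays shifted down, and Acads fell by 0.54 on the log2 scale (SE 0.17, adjusted p = 0.0110), or by 0.78 (adjusted p = 0.00126) after quantile normalization. This probe was dim. It lay above the limit of 0.554 on the 12 arrays of 3 months and on no array of 1 month (0.214 to 0.479). It lay above 1.14 on 4 of 6 3M Control and 1 of 6 3M STZ arrays, so the size of this fall is uncertain.

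Both subunits of the trifunctional protein rose with median scaling. Hadha (GE1247490) measured 0.618, 0.854 and 1.59 in 3M Control and 1.15, 1.43 and 1.70 in 3M STZ (log2 difference 0.58, SE 0.17, adjusted p = 0.00796). Only 1 of 6 control arrays lay above 1.14, against 6 of 6 STZ arrays, so the size of this difference is uncertain. Hadhb (GE19474) measured 4.23, 5.47 and 7.28 in 3M Control and 6.28, 8.65 and 9.80 in 3M STZ (1.56-fold, log2 difference 0.65, SE 0.15, adjusted p = 0.00176), all above 1.14. In Hadha 1 control array, number 6, lay within the STZ range, and in Hadhb STZ array 4 lay within the control range. The scaling separated the pair: after quantile normalization the difference was 0.77 (adjusted p = 0.00679) for Hadha and 0.07 (adjusted p = 0.651) for Hadhb. Across the 24 arrays the deviations of Hadha and Hadhb from their group means had a Pearson r of 0.44, beside a median of 0.45 over the 36 pairs of members. Without 3M STZ array 1 these were 0.44 and 0.57. The median over all gene pairs was 0.25 on 24 arrays. The part of array brightness and spread in these correlations was not tested. The highest pair was Acadl with Cpt1a at 0.79, and the lowest was Acads with Cpt2 at -0.64.

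**Figure D2:**
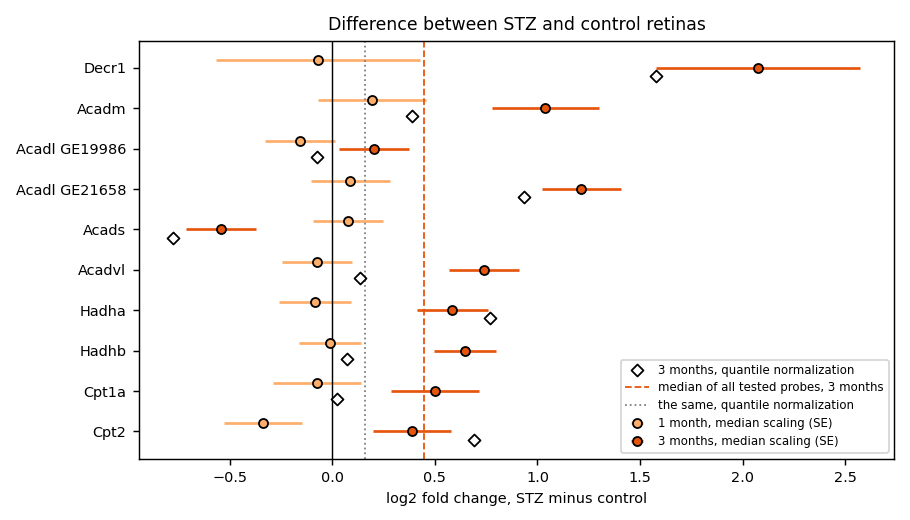
Log2 difference, STZ minus control (horizontal axis), of each member probe at 1 month and 3 months with median scaling (circles, bars are the SE of the limma fit) and at 3 months after quantile normalization (diamonds). Vertical lines mark the median of all tested probes at 3 months, 0.44 with median scaling and 0.16 with quantile normalization; 1 month values lie between -0.34 and 0.19.

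Decr1, the 2,4-dienoyl-CoA reductase, had the largest 3 month difference of the set, and its size rested on 1 array. It measured 0.887, 1.83 and 3.03 in 3M Control and 3.10, 4.44 and 96.8 in 3M STZ (GE19454). The value of 96.8 came from 3M STZ array 1, while the next highest of all 24 arrays was 5.95. With that array the mean log2 levels were 0.78 ± 0.60 in controls and 2.85 ± 1.86 in STZ retinas (SD, n = 6 each), a 4.21-fold difference or 2.08 on the log2 scale, which ranked 32 among the tested probes. Without it the STZ mean was 2.10 ± 0.34 (n = 5) and the difference 1.33, or 2.51-fold. The 5 other STZ arrays ran from 3.10 to 5.95 and still lay above all 6 controls, by a narrow margin of 3.10 against 3.03. With quantile normalization the difference was 1.58 with all arrays and 1.03 without array 1.

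The neighbourhood of the Decr1 spot on 3M STZ array 1 was bright as well. Of the 78 spots within 4 rows and columns of it, 31 (39.7%) were more than 2 log2 units above the median of the other 3M STZ arrays, against 1.21% over the whole array. The Decr1 spot itself was 4.51 above it. On the other 23 arrays the share around the Decr1 spot was 0%, and around the other 9 member spots on 3M STZ array 1 it was also 0%. Over the 239 other combinations of member spot and array the highest share was 8.86%.

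**Figure D3:**
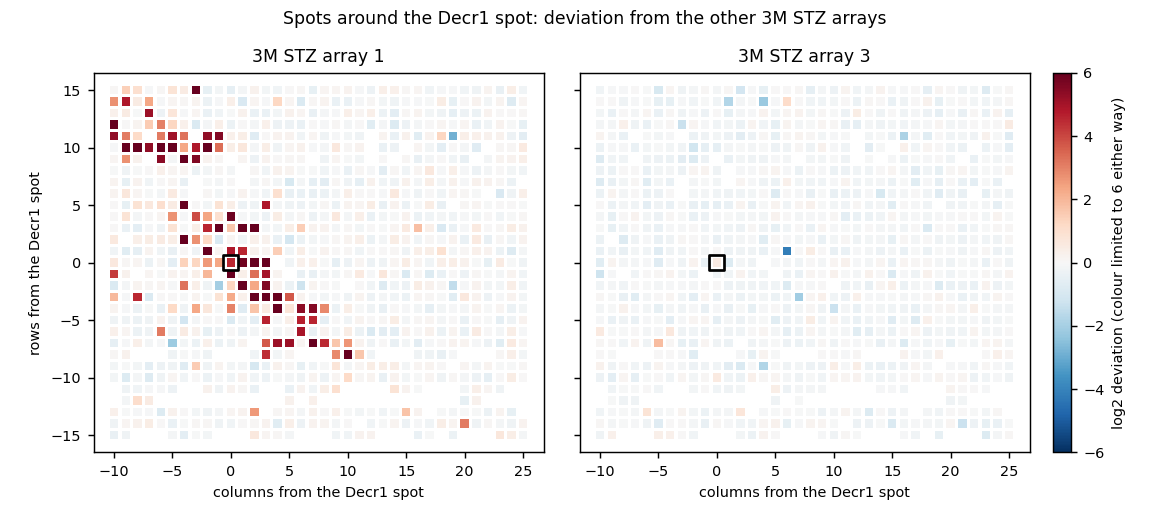
Deviation of each spot from the median of the other 3M STZ arrays, in log2 units (colour), by its distance in rows and columns from the Decr1 spot (boxed), on 3M STZ array 1 and, for comparison, array 3. A bright streak that includes the Decr1 spot crosses array 1 and is not seen on array 3.

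The genes whose array-to-array deviations were most like those of Decr1 were Slc44a1, Pde11a, Ifit1, Ephx1 and Clec4f, with a Pearson r of 0.96, 0.95, 0.95, 0.95 and 0.94 over 24 arrays among 2810 genes. On the probes that stood for them all 5 were highest on 3M STZ array 1, at log2 levels of 4.59 to 5.72 against at most 1.67 on any other array. Their spots lay at different distances from Decr1: Pde11a and Clec4f within 7 rows and columns, and Ephx1, Slc44a1 and Ifit1 at 58, 61 and 65 rows. Second probes of Ifit1, Ephx1 and Clec4f did not share this brightness. On array 1 these deviated from the other 3M STZ arrays by 0.43, -1.54 and 0.07 log2 units. The probes used deviated by 5.89, 4.18 and 4.68, so the high values belong to single spots of these 3 genes. Without array 1 the closest genes were different, namely Taf9, Stxbp3, Azin1, Mark3 and Usp48, with r of 0.90 to 0.91. Over these 23 arrays the members with the highest r to Decr1 were Acadl (0.77), Cpt1a (0.73) and Cpt2 (0.72), Acads had -0.54, and the median over all genes was 0.49. Brightness and spread differed between the arrays, and their part in these values was not tested.

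The effect of diabetes was larger at 3 months than at 1 month for 3 of the 8 members other than Decr1 by the test of the difference between the time points. The 3 month minus 1 month effect was 1.13 (SE 0.27, adjusted p = 0.0199) for Acadl, 0.81 (SE 0.24, adjusted p = 0.0332) for Acadvl and 0.66 (SE 0.21, adjusted p = 0.0409) for Hadhb. The share called over all tested probes was 15.5%, and the median of this difference over all tested probes was 0.44. After quantile normalization none of these 3 was called. Acads was, but its values at 1 month all lay under the limit of 0.554, so its difference between time points was not read. Leaving out 1 array at a time gave 1 to 8 calls: 8 without 3M Control array 6, 6 without 3M STZ array 4, and 1 without 3M Control array 3 or 3M STZ array 2, 5 or 6. Acadm (0.84, adjusted p = 0.0925), Hadha (0.67, adjusted p = 0.0578), Cpt2 (0.73, adjusted p = 0.0593), Cpt1a (0.58, adjusted p = 0.150) and Acads did not pass the test.

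Single arrays stood at the ends of many panels. Array 2 of 3M Control was the lowest of its group on 7 of the 10 member probes and array 6 the highest on 8. In 3M STZ array 4 was the lowest on 6 probes and array 5 the highest on 5. Without 3M Control array 2 the median 3 month difference over all tested probes fell to 0.32, and that of Acadl to 1.04, Acadm to 0.85, Acadvl to 0.60, Hadha to 0.47 and Hadhb to 0.58; each of these kept its call.

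Other genes of lipid breakdown were read in the same way. Of 97 related genes listed, 64 were on the array and 48 were tested. At 3 months 21 of the 48 rose with median scaling, beside 50.5% of all tested probes, and 1 fell (Cyp4a1). After quantile normalization 10 were higher and 2 lower (Acsl6 and Cyp4a1), beside 24.6% and 6.92% of all tested probes. These shares are also the background for the single lists below. For genes without overlap it is 9.49%, the share of tested probes with every STZ array above every control array. At 1 month limma called 0 of 48, with 3 at an unadjusted p under 0.05 (Echs1, Ppara and Ucp3), and the methods' test called 0.

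Among 5 other enzymes of mitochondrial beta-oxidation, 4 rose (Acaa2, Eci1, Acad9 and Hadh) and the median difference was 0.58. The thiolase Acaa2 rose by 1.04 (SE 0.22, adjusted p = 0.000839) and the enoyl-CoA isomerase Eci1 by 0.67 (adjusted p = 0.00308). Acaa2 had no overlap between groups, from 2.04 to 5.69 in controls and 5.78 to 8.55 in STZ retinas. Hadh, the short-chain hydroxyacyl-CoA dehydrogenase, rose by 0.38 (adjusted p = 0.0423), and the enoyl-CoA hydratase Echs1 had a difference of -0.36 (adjusted p = 0.0928). Echs1 lay under 1.14 on all 3 month arrays, so the size of its difference is uncertain. The effects of Acaa2 and Eci1 also differed between time points, by 0.99 (adjusted p = 0.0370) and 0.75 (adjusted p = 0.0388). Only Acaa2 was called after quantile normalization (0.56).

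All 3 tested genes of electron transfer and branched-chain acyl-CoA breakdown rose with median scaling. They were Etfdh, which passes electrons from the dehydrogenases to ubiquinone (0.69, adjusted p = 0.00929), the propionyl-CoA carboxylase subunit Pccb (0.60, adjusted p = 0.0224) and Ivd, isovaleryl-CoA dehydrogenase (0.40, adjusted p = 0.0395). None of the 3 was called after quantile normalization.

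Of 11 genes of fatty acid activation and the carnitine shuttle 3 rose (Slc27a1, Acsl3 and Acsl1), and the median was 0.30. The fatty acid transporter Slc27a1 (0.80, adjusted p = 0.00390) and the acyl-CoA synthetase Acsl3 (0.78, adjusted p = 0.00582) had the largest differences. Acsbg1 (-0.22, adjusted p = 0.212) and Slc27a2 (-0.29, adjusted p = 0.123) had the lowest. Both lay above 1.14 on 1 control and 0 STZ arrays of 3 months, so the size of these 2 differences is uncertain. After quantile normalization none of the 11 was called higher and Acsl6 was called lower (-0.39).

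Of 9 peroxisomal genes 5 rose, among them Amacr, Pecr, Hsd17b4 and Abcd3, with a median of 0.57. Amacr, an acyl-CoA racemase, rose by 1.34 (adjusted p = 0.00217), but its values of 1.44, 1.86 and 11.3 in 3M STZ had their highest on array 1, and the difference was 0.89 without that array. Only 2 of its 6 control arrays lay above 1.14. Pecr, a peroxisomal enoyl-CoA reductase, rose by 0.89 (adjusted p = 0.000764) and did not overlap, at 0.939 to 2.51 in controls and 2.60 to 3.56 in STZ retinas. Both differed between time points, by 1.34 (adjusted p = 0.0465) and 0.84 (adjusted p = 0.0357), and both were called after quantile normalization. The lowest were the thiolase Acaa1a (0.19, adjusted p = 0.245) and the oxidase Acox3 (-0.44, adjusted p = 0.0982). Acox3 lay above 1.14 on 1 control and 0 STZ arrays of 3 months, so the size of its difference is uncertain.

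Ketone body enzymes gave 2 rises in 5, with a median of 0.23. After quantile normalization none of the 5 was called. Acat1 rose by 0.68 (adjusted p = 0.00221), and its effect differed between time points by 0.67 (adjusted p = 0.0498). Bdh1 rose by 0.53 (adjusted p = 0.0233).

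Of 6 regulators of the pathway only Mlycd, which removes the Cpt1 inhibitor malonyl-CoA, rose with median scaling (0.39, adjusted p = 0.0414), and Prkaa2 and Nr1h3 were the ones called higher after quantile normalization, on values under 1.14 on all 3 month arrays. The AMP kinase subunit Prkaa2 had 0.32 (adjusted p = 0.371), the receptor Ppara 0.04 (adjusted p = 0.848) and the coactivator Ppargc1a -0.16 (adjusted p = 0.372). Ppara lay under 1.14 on every array, and Ppargc1a lay above it on 3 control and 1 STZ arrays of 3 months. At these levels a lack of change cannot be read from the values. Ppard, Pparg, Acaca and Acacb lay under the limit of 0.554. Of 9 genes known as PPAR targets 3 rose (Cyp4a3, Ucp2 and Cd36) and 1 fell (Cyp4a1), with a median of 0.07 against 0.44 for all tested probes. After quantile normalization the order was reversed, with a median of 0.25 for this list and 0.16 for all tested probes. The fatty acid hydroxylase Cyp4a3 (0.409 to 1.32 in controls, 1.58 to 2.00 in STZ retinas, adjusted p = 8.9e-05) and the uncoupling protein Ucp2 (0.424 to 1.08 and 1.14 to 1.56, adjusted p = 0.000369) rose without overlap, and both were called between time points (adjusted p = 0.0227 and 0.0286). Control values lay under 1.14 on 5 of 6 arrays for Cyp4a3 and on all 6 for Ucp2, so no size is given for these rises. Cyp4a1, above 1.14 on 2 control and 0 STZ arrays, was called lower (adjusted p = 0.0130), and no size is given for the same reason. The thioesterase Acot1, above 1.14 on 5 control and 1 STZ arrays, had -0.28 (adjusted p = 0.269), a size that is uncertain. Targets often used to follow PPAR activity, Pdk4, Angptl4, Fabp1, Fabp4 and Lpl, were under the limit. Cyp4a3, Ucp2 and Cyp4a1 kept their direction and call after quantile normalization.

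**Figure D4:**
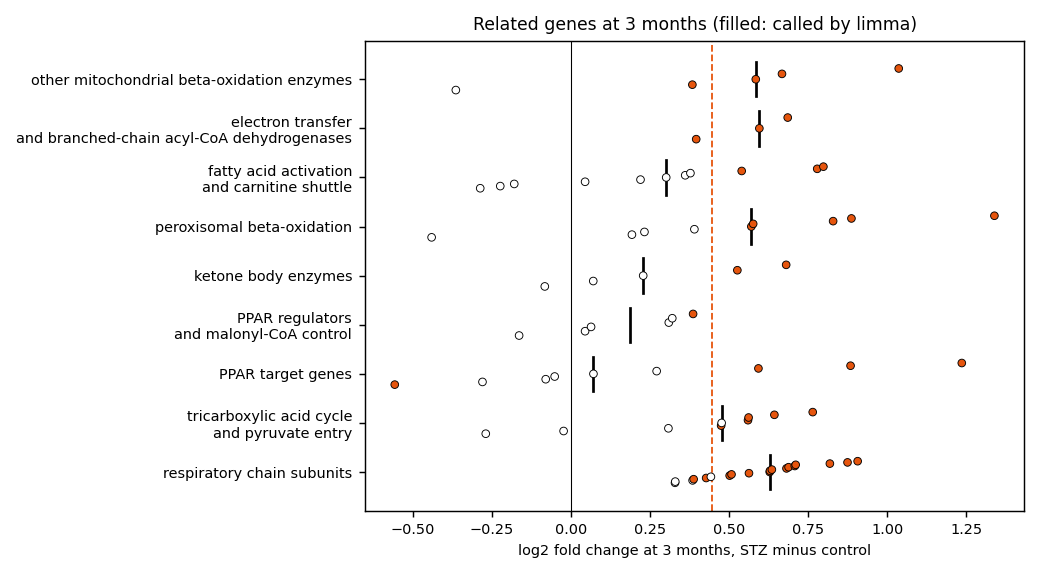
Log2 difference, STZ minus control at 3 months with median scaling (horizontal axis), of every tested gene of the related lists and of both comparison lists; filled points were called by limma, black bars are list medians and the dashed line is the median of all tested probes, 0.44. The respiratory chain list has the highest median, 0.63, and PPAR target genes the lowest, 0.07. After quantile normalization, which is not drawn, these 2 medians were 0.00 and 0.25.

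Other mitochondrial genes served for comparison. Of 19 respiratory chain subunits 15 rose with a median of 0.63, and of 9 genes of the tricarboxylic acid cycle and pyruvate entry 5 rose, among them Sdhd, Idh3a, Mpc1 and Fh, with a median of 0.48. After quantile normalization no gene of either list was called higher, Cs and Dld were lower, and the medians were 0.00 in both lists. The corresponding median over the 8 members other than Decr1 was 0.26, with 3 called higher and 1 lower. Differences between the lists were not tested.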

How the data were processed

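Rat retinal RNA was labelled and hybridised to 24 1-colour CodeLink rat whole genome arrays. The authors deposited background-subtracted spot intensities with intra-array normalization from CodeLink Expression Analysis Software, and 0 values of the deposited series table differed from the array files. Names came from matching unversioned RefSeq accessions: of 33849 rat probes (62 bacterial probes were set aside) 5469 carried one and 4674 matched a symbol. The files name no genome build, and the precision is limited by the number of arrays. From these intensities, values were divided by the array median, set to at least 0.01 and taken to log2. Probes above the 35th percentile of median intensity with at least 4 values in each group were tested with limma 3.58.1 in R 4.3.3, as 1 model of 4 groups, after tests on simulated data. The methods' test is Welch's, at p under 0.01 and 1.2-fold. Where a gene had several probes, the tested one with the highest mean level stood for it. The members, lists and tests were chosen with earlier results of these data known. Named genes were all members, the 2 highest and 2 lowest of each related list, those called at 1 month or between time points, and the 5 most like Decr1; others were named after their values were seen. Single values of some listed genes are not reported here. Alternatives included other scalings, filters, tests, covariates and leaving out each array.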

Additional observations from a re-analysis of the deposited data

Results flagged for a closer look

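Among the 40 sets of 6 arrays (10 probes in 4 groups), 3 held a value far from the others, where chance gives about 1 in 20. Of the 3, Decr1 in 3M STZ belongs to the values on which the set was chosen. That rate does not apply to Decr1 at 3 months, and its gap is only a description. The gap is given as a share of the whole range of the group. For Decr1 on 3M STZ array 1 the gap was 0.811 of the range, with a log2 level of 6.60 against 2.57 for the next array. For the Acadl probe GE19986 on 1M STZ array 4 it was 0.772, with -0.75 against 0.13, and for Hadhb on 3M STZ array 4 it was 0.672, with 2.65 against 3.08.

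The effect of diabetes differed between 3 months and 1 month by limma's test of that difference for Acadl (1.13 on the log2 scale, from 1.21 at 3 months and 0.09 at 1 month), Acadvl (0.81, from 0.74 and -0.07) and Hadhb (0.66, from 0.65 and -0.01). None of these 3 was called after quantile normalization.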

How the results depend on the processing

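No result changed its direction past the threshold under any of the alternatives tried, and the 0 calls at 1 month, for members and related genes, were 0 under every one of them. The 6 of 8 members called at 3 months became 3 with quantile normalization within each time point, 2 with the methods' test after Benjamini-Hochberg adjustment and 0 with each array's spread as a covariate, and ran from 6 to 8 with each array left out in turn. The spreads of 3M Control and 3M STZ arrays overlap only from 2.07 to 2.23, and with this covariate 0 of all tested probes were called at 3 months, against 11911. Under it Cpt1a and Cpt2, not called, turned to -0.22 and -0.20. The other members kept their direction with smaller differences: Acadl 0.57, Acadm 0.32, Acadvl 0.30, Hadha 0.06, Hadhb 0.06 and Acads -0.08. The 3 of 8 members called between time points became 1 with quantile normalization, 0 with quantile normalization within each time point, 1 with the 5th percentile subtracted, 7 with array weights, 1 with array brightness as a covariate, 0 with spread as a covariate and 1 with quantile normalization and 3M STZ array 1 left out, and ran from 1 to 8 with each array left out. This count has no value under the methods' test or separate models. With quantile normalization the 1 member called was Acads, in the lower direction and not among the 3. The 22 of 48 related genes called at 3 months became 12 with quantile normalization, 10 within each time point, 5 with the methods' test, 4 after its adjustment, 8 with brightness and 0 with spread as a covariate, 13 with 3M Control array 2 and 3M STZ array 1 both left out and 11 with quantile normalization and 3M STZ array 1 left out, and ran from 15 to 26 with each array left out. Of the 12 related genes called with quantile normalization, 8 were among the 22. Of the 10 called with it within each time point, 7 were. The Decr1 difference at 3 months ran from 1.33 to 2.32 with each array left out, the lowest without 3M STZ array 1. With the replicate number as a block the counts were 6 members and 20 related genes at 3 months, 2 members between time points and 0 at 1 month. Same-numbered arrays had deviations that correlated from -0.24 to 0.25, with 5 of 12 pairs over 0.1, so they share only a number. The settings without both arrays and with quantile normalization without 3M STZ array 1, and the likeness over 23 arrays, were chosen after seeing the data. Probes near the bacterial control level at 3 months (Acads, Cpt2 and, in controls, Hadha) limit what can be read of those genes. The cause of these shifts was not tested.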
